A study of Mus musculus with 9 samples.

Results

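The Schlafen genes are a family of immune and growth regulators that lie close together in the mouse genome. Its members in these data were Slfn1, Slfn2, Slfn3, Slfn5, Slfn8 and Slfn9. They were chosen by gene symbol among the RefSeq transcripts of the deposited table, and of each gene the transcript with the highest total count over all libraries was kept. They were 6 of 25160 genes in the table, and all 6 were among the 11256 genes with enough counts to be tested. The rule used symbols and total counts, but the family was put forward with fold changes of these data already known, so the counts of members below describe the family and are no independent evidence about it.

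The study cultured naive CD4+ T cells, sorted by flow cytometry from spleens of C57BL/6 mice, on plates coated with 1 µg/ml of anti-CD3e, an antibody that stimulates cells through the T cell receptor complex. Every group carried that antibody, together with 19 µg/ml of a second one. The second antibody was an isotype control for wild-type cells (genotype label wt) in the group called isotype here, and an antibody against CD40L for wild-type cells in the group called anti-CD40L. A further group held cells of mice with a deficiency of CD40L limited to T cells, cultured on the isotype antibody, with KO in the sample titles and cre as the genotype label. Each group had 3 libraries. The sources used here do not give the promoter that drives the Cre, the age of the mice, the duration of culture or whether libraries of a group came from separate mice. The p-values therefore reflect only how far these libraries spread, which may be technical.

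Schlafen proteins share an N-terminal domain that in several members binds or cuts transfer RNA and ribosomal RNA. Short members, such as Slfn1 and Slfn2, hold little more than this domain, while long members, such as Slfn5, Slfn8 and Slfn9, add a helicase-like C-terminal part. Many Schlafen genes are induced by type I interferon, and in T cells the family is known for its link to quiescence: Slfn1 restrains thymocyte growth when overexpressed, and loss of Slfn2 function costs T cells their quiescent state and their survival.

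All 6 members lie in 1 cluster on chromosome 11, from base 82951349 to base 83286726 of GRCm38.p6, a span of 335 kb. In order of position its Schlafen genes are Slfn5 (82951349 to 82964850), Slfn9 (82974316 to 82991830), Slfn8 (83002125 to 83020810), Slfn10-ps, Slfn2 (83065112 to 83070678), Slfn1 (83116820 to 83122670), Slfn4, Slfn3 (83191330 to 83215154) and Slfn14. The span also holds 10 other RefSeq genes. The coding part is shortest in Slfn1 (1011 bases) and Slfn2 (1134 bases), intermediate in Slfn3 (1551 bases), and longest in Slfn5 (2652 bases), Slfn8 (2730 bases) and Slfn9 (2730 bases).

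Promoter sequences are shown for the members on which the results turn: Slfn1 and Slfn5, which fell on anti-CD40L, Slfn2, the most abundant, and Slfn8 and Slfn9, a pair with similar promoters that did not pass the test. Each is the stretch of 250 bases before the start site, from RefSeq on GRCm38.p6, written 5′ to 3′ in the direction of the gene. Capitals mark matches to 3 motifs searched on both strands. These were the core of the interferon-stimulated response element (GAAA, 2 bases of any kind, GAAA), the composite ETS and IRF element (GGAA, 2 bases of any kind, GAAA), and ACTTCCTGG, a word noticed after the sequences were seen.
Slfn1 (chr11:83116570-83116819, plus strand): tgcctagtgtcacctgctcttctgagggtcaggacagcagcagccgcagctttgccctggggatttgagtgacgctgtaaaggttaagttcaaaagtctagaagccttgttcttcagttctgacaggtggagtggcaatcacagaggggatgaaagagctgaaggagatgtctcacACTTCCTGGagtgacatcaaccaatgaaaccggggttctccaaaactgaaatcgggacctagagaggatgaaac
Slfn2 (chr11:83064862-83065111, plus strand): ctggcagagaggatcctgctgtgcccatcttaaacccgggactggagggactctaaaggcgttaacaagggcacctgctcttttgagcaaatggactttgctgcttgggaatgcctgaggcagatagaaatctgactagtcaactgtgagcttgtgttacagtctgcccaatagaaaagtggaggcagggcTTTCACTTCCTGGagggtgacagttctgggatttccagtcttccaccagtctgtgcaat
Slfn5 (chr11:82951852-82952101, plus strand): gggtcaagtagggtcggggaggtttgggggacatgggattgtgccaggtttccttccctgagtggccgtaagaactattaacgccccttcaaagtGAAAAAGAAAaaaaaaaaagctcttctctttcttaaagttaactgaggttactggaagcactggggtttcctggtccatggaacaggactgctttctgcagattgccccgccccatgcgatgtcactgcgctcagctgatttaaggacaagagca
Slfn8 (chr11:83020811-83021060, minus strand): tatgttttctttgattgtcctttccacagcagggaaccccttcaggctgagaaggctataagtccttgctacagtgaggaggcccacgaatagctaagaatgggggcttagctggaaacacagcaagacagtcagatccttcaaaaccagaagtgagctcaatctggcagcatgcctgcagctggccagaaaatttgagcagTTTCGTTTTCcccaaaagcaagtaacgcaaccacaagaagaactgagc
Slfn9 (chr11:82991831-82992080, minus strand): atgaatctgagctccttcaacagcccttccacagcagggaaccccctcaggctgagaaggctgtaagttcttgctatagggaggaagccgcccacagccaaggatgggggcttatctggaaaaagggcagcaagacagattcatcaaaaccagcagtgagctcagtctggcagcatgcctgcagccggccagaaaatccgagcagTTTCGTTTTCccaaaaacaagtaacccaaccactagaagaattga

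The interferon element core matched in Slfn5, from 155 to 146 bases before the start, where the match runs into a tract of A. It also matched, on the reverse strand, in Slfn8 (48 to 39 bases before the start) and Slfn9 (45 to 36 bases before). From another Slfn8 start, at base 83020722, the same match lies 136 to 127 bases before. The share of all 32851 promoter windows of this length that hold the core was 2.98%. In Slfn2 the composite element matched on the reverse strand from 59 to 50 bases before the start (2.3% of all windows). It overlaps there with ACTTCCTGG, which lies from 55 to 47 bases before the start of Slfn2 and from 74 to 66 before that of Slfn1. The same word was present before Slfn3 (42 to 34 bases) and Slfn4 (73 to 65 bases), and in 0.7% of all windows. Since the word was noticed in these Schlafen windows, that share is no measure of enrichment. The interferon gamma element TTCNNNGAA (7.02% of windows) and the FOXO motif GTAAACA (3.17%) matched in none of the Schlafen windows, which says only that these letters are not in these stretches. The start of Slfn5 used for its promoter, at base 82952102, lies inside the span given for the gene, which begins at base 82951349. Aligned end to end, the promoters of Slfn8 and Slfn9 were identical in 204 of 255 alignment columns (80.0%).

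Reads of such close relatives can be assigned to the wrong gene, so the kept transcripts were compared. Slfn5 shared no stretch of 50 bases with another Schlafen transcript, and Slfn1 shared 0.6% of its 50-base words and Slfn2 4.3%. The share was larger for Slfn9 (11.2%), Slfn3 (14.3%) and Slfn8 (14.6%), whose values are therefore less certain, since the sources used here do not say how reads with several alignments were handled. At the margin of the rule, the kept transcript of Slfn8 had 3734.5 counts in total and its other transcript 3157. The pseudogene Slfn10-ps, with 2536 counts, is no member.

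Total counts ranged from 5316482 to 15565711 per library. The lowest was anti-CD40L replicate 3, which also had a count for the fewest genes, 11673 against 14290 to 17428 elsewhere, and stood apart on the first principal component, which held 62.8% of the variance. The targeted gene Cd40lg was not called between the libraries labelled KO and wild type, at 145, 136 and 150 CPM (read counts scaled to a common library size by the TMM method) against 142, 154 and 189 CPM in wild-type isotype libraries, which overlapped (log2 fold change -0.17, SE 0.13; quasi-likelihood test of edgeR, the test used throughout unless another is named, with Benjamini-Hochberg adjusted p = 0.935). The sources used here do not say which part of the gene was deleted, so KO below is a label only. All 8 CD4 T cell markers were tested, and their summed level was 4460 to 5120 CPM in every library. Summed markers of B cells (9 genes, none at 0 throughout a group) ranged from 13.2 to 39.5 CPM on isotype, from 1.72 to 14.8 on anti-CD40L and from 7.61 to 19.4 in the libraries labelled KO. Those of monocytes, macrophages and neutrophils (10 genes) ranged from 7.69 to 8.36, from 2.69 to 6.11 and from 5.12 to 17.7 CPM, with S100a8, S100a9 and Ly6g at 0 in all wild-type libraries. Summed markers of CD8 T cells, natural killer cells, dendritic cells and erythroid cells reached at most 11.9, 27.4, 2.93 and 2.03 CPM. The natural killer maximum, in isotype replicate 1, was almost all Eomes (26.88 CPM). The other natural killer markers reached at most 0.45 CPM in that library. The part of such cells in the Schlafen differences was not tested. In RNA from bulk cells, fewer cells of a type and less RNA per cell cannot be told apart.

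Per kilobase of transcript, the scale on which genes can be compared, Slfn2 was far above the other members. Its level was 458 ± 21.7 CPM per kb in wild-type isotype libraries (SD, n = 3, as for all means below). Slfn1 was next at 68.0, followed by Slfn8 at 6.87 to 11.7, Slfn3 at a mean of 5.49, Slfn5 at 3.26 and Slfn9 at 0.631 CPM per kb. No neighbours in this order overlapped between libraries of that group. In the libraries labelled KO, Slfn3 (4.60 to 6.33 CPM per kb) and Slfn5 (4.52 to 5.51) overlapped and were not separated. On anti-CD40L the order was the same as on isotype, with Slfn2 at 535 ± 48.7 and Slfn1 at 37.1 CPM per kb. Slfn2 held 82.3%, 85.6% and 84.0% of the members' summed level per kb in the 3 isotype libraries and 82.2%, 85.5% and 85.1% in those labelled KO. On anti-CD40L its share was 90.2%, 90.4% and 92.4%, above every other library. A share also rises when other members fall, and Slfn1 was at 37.1 CPM per kb there against 68.0 on isotype.

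**Figure D1:**
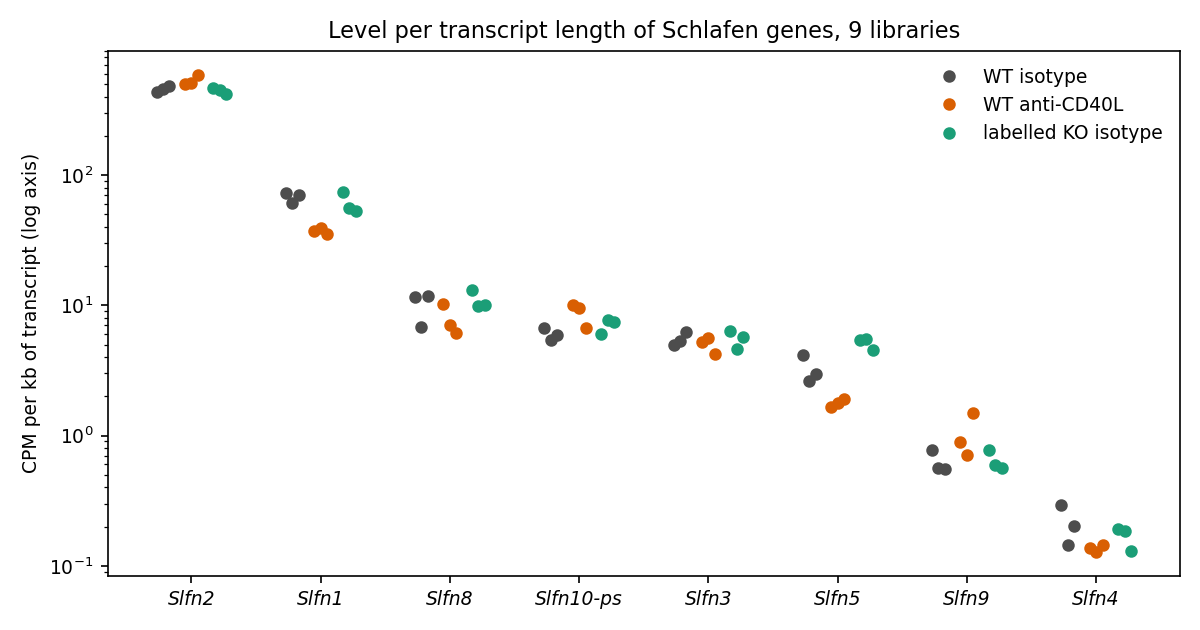
Level of each Schlafen member, of Slfn10-ps and of Slfn4 per kilobase of transcript (CPM per kb, log axis) in the 9 libraries, coloured by group. Slfn2 lies highest in every library, Slfn9 lowest of the members with Slfn4 below it, and the anti-CD40L points of Slfn1 and Slfn5 lie below those of both other groups.

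Among the short members, Slfn1 was lower on anti-CD40L than in either other group. It was at 135.65, 114.20 and 130.31 CPM in isotype replicates 1 to 3, at 68.83, 73.12 and 65.35 on anti-CD40L and at 138.51, 104.31 and 98.68 in the libraries labelled KO. The 3 anti-CD40L libraries lay below all 6 others, which overlapped with each other. Slfn2, needed for T cell quiescence and survival, was at 726.66, 758.56 and 798.83 CPM on isotype, at 835.38, 850.92 and 982.92 on anti-CD40L and at 770.24, 748.07 and 698.40 in those labelled KO. Here the anti-CD40L libraries lay above all 6 others, the highest being replicate 3, the library with the smallest total. Slfn3, of intermediate length and otherwise studied mainly in gut epithelium, was at 8.96, 9.69 and 11.24 CPM on isotype, at 9.41, 10.14 and 7.64 on anti-CD40L and at 11.49, 8.34 and 10.37 in the libraries labelled KO. All 3 groups overlapped for Slfn3.

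Among the long members, Slfn5 was the one whose 3 groups were all apart. Slfn5, a nuclear protein described as a regulator of interferon-driven transcription, was at 24.82, 15.68 and 17.89 CPM on isotype, at 9.86, 10.65 and 11.46 on anti-CD40L and at 32.30, 32.94 and 27.04 in the libraries labelled KO. The libraries fell in the order anti-CD40L, isotype, labelled KO with no overlap, and isotype replicate 1 lay nearest to those labelled KO. Slfn8 was at 46.32, 27.55 and 47.03 CPM on isotype, at 40.87, 28.09 and 24.65 on anti-CD40L and at 52.56, 39.60 and 40.15 in those labelled KO. Its groups overlapped, with isotype replicate 2 as low as the anti-CD40L libraries. Slfn9, the least abundant member, was at 4.48, 3.23 and 3.21 CPM on isotype, at 5.11, 4.06 and 8.60 on anti-CD40L and at 4.44, 3.44 and 3.24 in the libraries labelled KO. These values rest on 27.5 to 57 counts per library, and only anti-CD40L replicate 3 stood well above the rest.

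**Figure D2:**
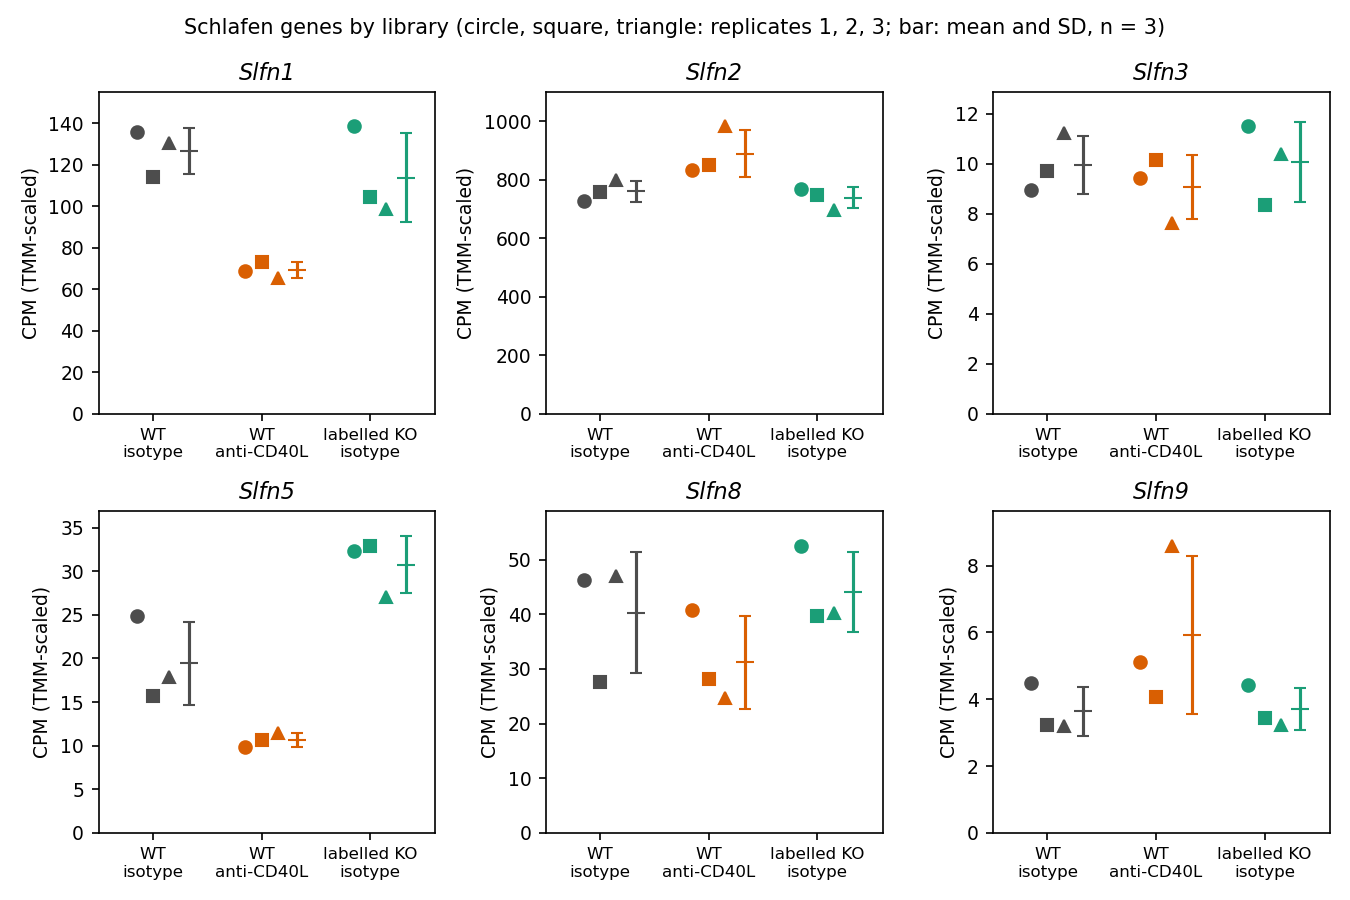
CPM of each member by library in the 3 groups, each panel with its own linear axis from 0 (circle, square and triangle: replicates 1, 2 and 3; bar: mean and SD, n = 3). The anti-CD40L libraries lie lowest for Slfn1 and Slfn5 and highest for Slfn2, and the libraries labelled KO lie highest for Slfn5.

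The first comparison asked how an antibody against CD40L alters wild-type cells stimulated through CD3e. Slfn1 and Slfn5 fell, to 0.546 and 0.543 times their isotype levels. In counts, 2 of 6 members fell and 0 rose, where 6.46% of all tested genes fell and 2.91% rose. Slfn1 went from 127 ± 11.2 to 69.1 ± 3.89 CPM, a level 1.83-fold lower (a log2 change of -0.87, SE 0.12; edgeR, Benjamini-Hochberg adjusted p = 0.000841), and passed the threshold under all 18 settings tried. Slfn5 went from 19.5 ± 4.77 to 10.7 ± 0.803 CPM, 1.84-fold lower (a log2 change of -0.88, SE 0.19; edgeR, Benjamini-Hochberg adjusted p = 0.0113). Slfn5 passed under 16 of the 18 settings, and the call was lost in the other 2, each of which left out a single library. Without isotype replicate 1, the highest of its group, the log2 fold change was -0.65, and without anti-CD40L replicate 1 it was -0.83 (edgeR, Benjamini-Hochberg adjusted p = 0.0641 and 0.0552).

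The other members did not pass the test. Slfn2 stood at 890 ± 81.1 CPM against 761 ± 36.2, without overlap between the groups (log2 fold change 0.22, SE 0.08; edgeR, Benjamini-Hochberg adjusted p = 0.11). For Slfn3 the log2 fold change was -0.12 (SE 0.21) and for Slfn8 -0.35 (SE 0.22; edgeR, Benjamini-Hochberg adjusted p = 0.755 and 0.335). For Slfn9 it was 0.66 (SE 0.34), and 0.34 without anti-CD40L replicate 3 (edgeR, Benjamini-Hochberg adjusted p = 0.233 and 0.466). The Slfn9 value thus rests largely on the library with the smallest total.

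At an unadjusted p under 0.05 there were 3 members (26.4% of tested genes). DESeq2, limma-voom and edgeR with no filter on low counts each called 2 members, where they called 14.4%, 9.29% and 8.64% of genes. Groups did not overlap for 2 members that were lower and 1 that was higher, against 17.2% and 15.4% of all tested genes. The members' median log2 fold change was -0.23, beside -0.01 over all tested genes.

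The second comparison set the libraries labelled KO against wild type, both on the isotype antibody. Slfn5 showed the largest difference of the family, at 30.8 ± 3.24 CPM against 19.5 ± 4.77 in wild type, and did not pass the threshold (log2 fold change 0.66, SE 0.17; edgeR, unadjusted p = 0.00226, Benjamini-Hochberg adjusted p = 0.493). All 3 libraries labelled KO were above all 3 of wild type, and Slfn5 ranked at place 51 of 11256 genes by p. It passed with no filter on low counts (edgeR, Benjamini-Hochberg adjusted p = 0.0478). DESeq2 and limma-voom did not call it (Benjamini-Hochberg adjusted p = 0.138 and 0.286), and the range over all settings was 0.0478 to 1.0.

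For the other 5 members the groups overlapped. Slfn1 was at 114 ± 21.6 CPM (log2 fold change -0.16, SE 0.12) and Slfn2 at 739 ± 36.8 CPM (log2 fold change -0.04, SE 0.08; edgeR, Benjamini-Hochberg adjusted p = 0.935 and 0.983). Log2 fold changes were 0.01 for Slfn3 (SE 0.20), 0.13 for Slfn8 (SE 0.21) and 0.01 for Slfn9 (SE 0.34; edgeR, Benjamini-Hochberg adjusted p = 1.0, 0.978 and 1.0). The sign of the last 3 changed when single libraries were left out.

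By edgeR 0 of 6 members were called, and 0% of all 11256 genes. At an unadjusted p under 0.05 there was 1 member, Slfn5, where 5.77% of tested genes passed. DESeq2 called 0 members and 39 genes (0.346%), limma-voom called 0 of either, and edgeR with no filter called 1 member and 102 genes (0.519%). Groups did not overlap for 1 member that was higher and 0 that were lower, against 7.61% and 7.62% of tested genes. The median over the members was 0.01, beside 0.00 over all genes.

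The third comparison set anti-CD40L on wild-type cells against the isotype libraries labelled KO. It shares libraries with both others, as these share the wild-type isotype libraries with each other, so the values stand side by side and are not separate evidence. Slfn5 was 2.9-fold lower on anti-CD40L (log2 fold change -1.54, SE 0.18; edgeR, Benjamini-Hochberg adjusted p = 0.000328) and passed under all 18 settings. Slfn1 was 1.64-fold lower (log2 fold change -0.71, SE 0.12; edgeR, Benjamini-Hochberg adjusted p = 0.00343), also under all 18. For Slfn1 the difference of -0.71 stands beside -0.87 from wild-type isotype, while for Slfn5 it was the sum of a lower value on anti-CD40L and a higher one in the libraries labelled KO.

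Slfn2 stood 0.27 higher on the log2 scale on anti-CD40L (SE 0.08), without overlap between the groups, and was called by DESeq2 and not by edgeR (Benjamini-Hochberg adjusted p = 0.0179 and 0.0761). Slfn8 stood at -0.48 on the log2 scale (SE 0.22) and was called only with no filter on low counts (edgeR, Benjamini-Hochberg adjusted p = 0.222, and 0.0208 with no filter). For Slfn3 the difference was -0.13 on the log2 scale (SE 0.20) and for Slfn9 0.65 (SE 0.33; edgeR, Benjamini-Hochberg adjusted p = 0.748 and 0.272). Without anti-CD40L replicate 3 it was 0.33 for Slfn9 and 0.20 for Slfn2 (edgeR, Benjamini-Hochberg adjusted p = 0.518 and 0.187). In counts, 2 of 6 members were lower and 0 higher, against 5.04% and 1.79% of all tested genes, and 4 members had an unadjusted p under 0.05 (22.2% of genes). DESeq2 and edgeR with no filter each called 3 members, and limma-voom 2, against 10.8%, 6.64% and 6.9% of genes. Groups did not overlap for 2 lower and 1 higher member, against 15.9% and 10.3%. The median over members was -0.30, beside -0.01 over all genes.

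**Figure D3:**
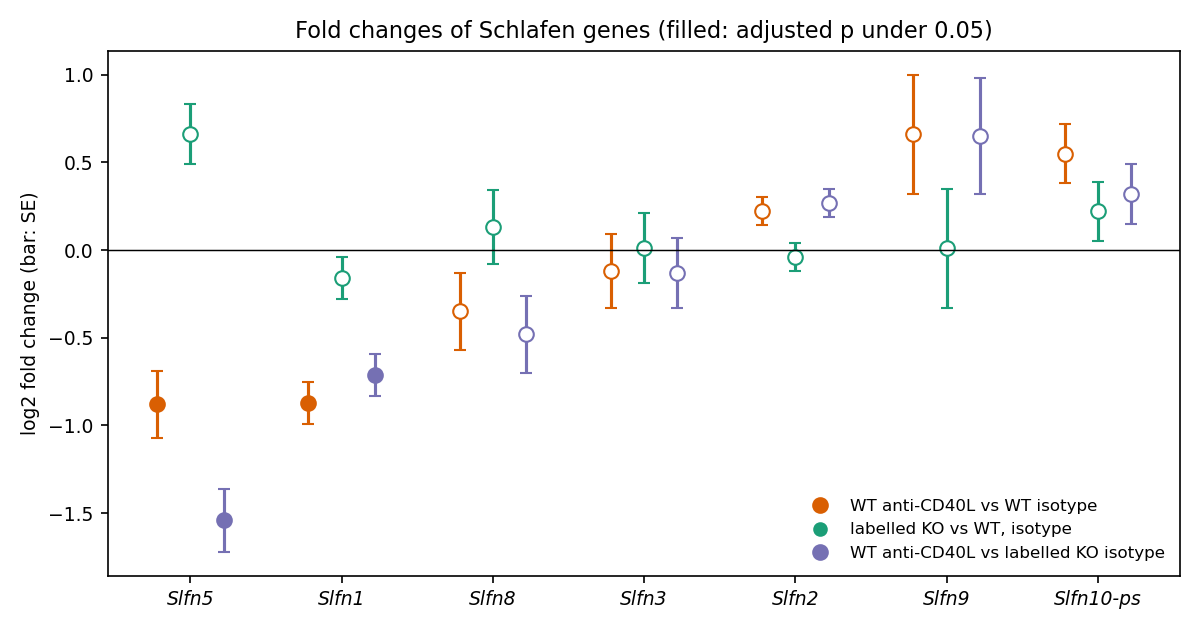
Log2 fold change of each Schlafen gene in the 3 comparisons, with SE (filled: Benjamini-Hochberg adjusted p under 0.05 by edgeR). Slfn1 and Slfn5 are filled in both comparisons that involve anti-CD40L, and no point is filled where the libraries labelled KO are set against wild type.

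The remaining family genes were sparse, apart from the pseudogene. Slfn10-ps was at 24.37, 19.76 and 21.45 CPM on isotype, at 36.39, 34.38 and 24.08 on anti-CD40L and at 21.68, 27.74 and 26.85 in the libraries labelled KO. Of the anti-CD40L libraries, replicate 3 fell within the isotype range and the other 2 lay above it. Its log2 fold change on anti-CD40L was 0.55 (SE 0.17; edgeR, Benjamini-Hochberg adjusted p = 0.059), and 5 of 18 settings called it. Without anti-CD40L replicate 3 it was 0.70, and without KO replicate 1 it was 0.56 (edgeR, Benjamini-Hochberg adjusted p = 0.0107 and 0.0489). Slfn10-ps shared 19.7% of its 50-base words with other Schlafen transcripts, most of them Slfn9, so its level is uncertain too. Slfn4, mainly a myeloid gene, had 3 to 12.5 counts per library and was not tested. Slfn14, whose protein cuts ribosomal RNA in blood precursors, had 4.5 counts in all 9 libraries, and Slfnl1, a Schlafen-like gene on chromosome 4, had 10.5. These depths cannot show a difference.

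An antisense gene, Slfn5os, overlaps Slfn5, with 77 of its 574 exon bases inside Slfn5 exons. It had 13.5 counts in the isotype libraries together, 3.5 on anti-CD40L and 42.5 in those labelled KO, the same order of groups as Slfn5, and was too sparse for the test. Slfn5 itself had 60 to 450 counts per library. The sources used here do not say whether counting used the strand, so reads from the 2 genes cannot be told apart where they overlap.

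To see whether the fall of Slfn1 and Slfn5 extended along the chromosome, the 5 nearest protein-coding genes on the Slfn5 side of the cluster were examined. Of these 3 were tested, and edgeR called 0 in any comparison, with 0 at an unadjusted p under 0.05 and 0 by DESeq2 or limma-voom. On anti-CD40L against isotype, the log2 fold changes were 0.11 for Rffl (a ubiquitin ligase gene), 0.08 for Rad51d (DNA repair) and 0.20 for Nle1 (ribosome assembly), with adjusted p of 0.286 or more (edgeR, Benjamini-Hochberg). Within the cluster, Slfn1 lies between Slfn2 and Slfn4, and Slfn5 at the edge beside Slfn9. The nearest tested Schlafen genes around them, Slfn9 beside Slfn5 (0.66) and Slfn2 and Slfn3 on either side of Slfn1 (0.22 and -0.12), were not called. The 10 other RefSeq genes inside the span of the cluster were not examined.

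**Figure D4:**
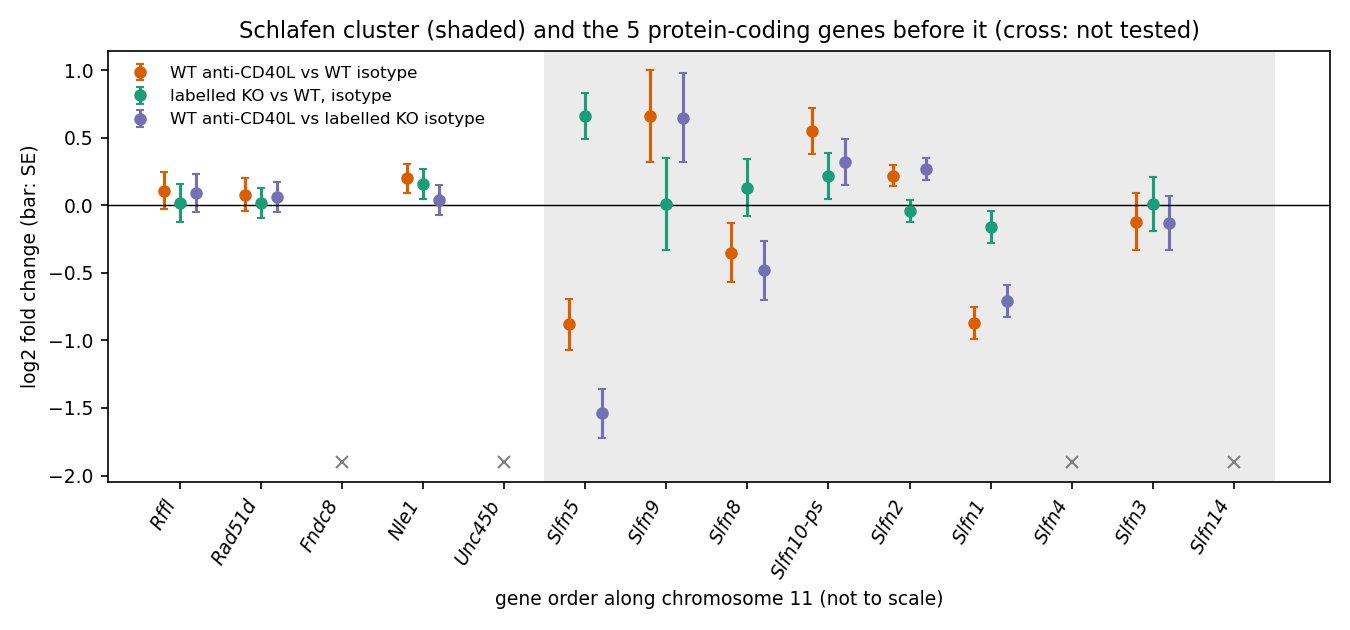
Log2 fold change with SE of the Schlafen genes of the cluster (shaded) and of the 5 protein-coding genes before it, in order along chromosome 11 and not to scale, for the 3 comparisons (cross: too few counts to be tested). For anti-CD40L against isotype the tested genes outside lie between 0.08 and 0.20, while inside the cluster Slfn5, Slfn8, Slfn1 and Slfn3 lie below 0 and Slfn9, Slfn10-ps and Slfn2 above 0.

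Because Schlafen genes are known as interferon-induced genes, a list of other such genes was examined beside them. This list and those below were chosen with earlier results of these data known, so their counts only describe these libraries. On anti-CD40L against isotype, 9 of 36 tested interferon-induced genes fell and 0 rose, with a median log2 fold change of -0.79, beside 6.46% and a median of -0.01 for all tested genes. Ifi208, of the DNA-sensing PYHIN family, was at 20.25, 17.39 and 24.89 CPM on isotype and at 4.30, 6.19 and 4.59 on anti-CD40L (log2 fold change -2.04; edgeR, Benjamini-Hochberg adjusted p = 8.13e-05). Ifi203, of the same family, and Ddx58, the RNA sensor RIG-I, had log2 fold changes of -1.73 and -2.74 (edgeR, Benjamini-Hochberg adjusted p = 0.000156 and 0.000344). The count of 9 was 5 without isotype replicate 1, isotype replicate 3 or anti-CD40L replicate 1. DESeq2 called 12 lower and limma-voom 6, where they called 14.4% and 9.29% of all tested genes in either direction. Against the libraries labelled KO, 10 of 36 were lower on anti-CD40L (median -0.88), and 6 without KO replicate 1, beside 5.04% of all tested genes. DESeq2 called 17 lower and 1 higher there, and limma-voom 6 lower, beside 10.8% and 6.9% of all tested genes. Between the libraries labelled KO and wild type edgeR called 0, with 3 at an unadjusted p under 0.05 (5.77% of all tested genes), 0 by DESeq2 and 0 by limma-voom, and a median of 0.03.

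Genes that receive and transmit interferon signals were lower as well. Of 17 tested, 8 fell on anti-CD40L against isotype and 0 rose, with a median log2 fold change of -0.39. Over all tested genes, 6.46% fell, 2.91% rose and the median was -0.01. Ifngr1, a chain of the interferon gamma receptor, went from 133.95, 95.10 and 128.93 CPM on isotype to 23.57, 34.38 and 33.06 on anti-CD40L (log2 fold change -1.99; edgeR, Benjamini-Hochberg adjusted p = 6.97e-05). Its partner chain Ifngr2 and the transcription factor Irf1 had log2 fold changes of -0.82 and -1.20 (edgeR, Benjamini-Hochberg adjusted p = 0.00816 and 0.0107). The count of 8 was 3 without isotype replicate 3, 4 without isotype replicate 1 or anti-CD40L replicate 1, and 5 without anti-CD40L replicate 3. DESeq2 called 8 lower and 1 higher, and limma-voom 6 lower, where they called 14.4% and 9.29% of all tested genes. Against the libraries labelled KO 5 were lower (median -0.45), 3 without anti-CD40L replicate 1, 8 by DESeq2 and 4 by limma-voom. Of all tested genes 5.04% were lower there by edgeR, and DESeq2 and limma-voom called 10.8% and 6.9% in either direction. Among the 5 lower genes were the transcription factors Irf8 and Irf7, with log2 fold changes of -0.71 (SE 0.12) and -3.22 (SE 0.6; edgeR, Benjamini-Hochberg adjusted p = 0.00273 and 0.0055). Irf7 was sparse, at 1.17, 0.91 and 0.0 CPM on anti-CD40L and at 12.03, 5.86 and 5.15 in the libraries labelled KO, so its size of change is uncertain. Irf8 was at 72.18, 58.05 and 59.04 CPM in the libraries labelled KO, above the 39.57 to 44.08 CPM of wild-type isotype. Between these groups edgeR called 0 of 17, with 2 at an unadjusted p under 0.05 (5.77% of all tested genes), 1 higher by DESeq2 (0.346% of all tested genes) and 0 by limma-voom.

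Genes of T cell quiescence and the naive state, the setting in which Slfn1 and Slfn2 are best known, had the largest share of calls among the lists examined. As the lists were chosen with earlier results of these data known, that rank is a description and no independent evidence. On anti-CD40L against isotype 15 of 24 fell and 0 rose, with a median log2 fold change of -0.49, and 11 to 16 fell when single libraries were left out, 17 by DESeq2 and 15 by limma-voom. Of all tested genes 6.46% fell and 2.91% rose by edgeR, and DESeq2 and limma-voom called 14.4% and 9.29% in either direction. Il7r, a chain of the IL-7 receptor that keeps naive cells alive, S1pr1, which guides exit from lymphoid organs, and Pik3ip1, an inhibitor of PI3 kinase, had log2 fold changes of -4.27, -2.63 and -2.39 (edgeR, Benjamini-Hochberg adjusted p = 4.21e-07, 6.87e-07 and 2.44e-05). Slfn1 fell with these genes, while Slfn2, also tied to quiescence, stood at 0.22 and was not called. Against the libraries labelled KO 12 of 24 were lower (median -0.42), also 12 by limma-voom, and DESeq2 called 12 lower and 1 higher. Of all tested genes 5.04% were lower there by edgeR, and limma-voom and DESeq2 called 6.9% and 10.8% in either direction. Between the libraries labelled KO and wild type edgeR called 0, with 5 at an unadjusted p under 0.05 (5.77% of all tested genes) and 0 by DESeq2 or limma-voom.

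Genes of transfer RNA cleavage and of DNA damage, examined for the molecular functions of Schlafen proteins, gave few calls by edgeR. The DNA damage list was drawn up for proteins of the SLFN11 type, and SLFN11 is not among the members. Of 9 genes of transfer RNA cleavage and protection, edgeR called 0 in any comparison. On anti-CD40L against isotype 2 were at an unadjusted p under 0.05 (26.4% of all tested genes). DESeq2 called 2 higher and limma-voom 1, where they called 14.4% and 9.29% of all tested genes. Without KO replicate 1 or 3 or anti-CD40L replicate 2, edgeR called 1 or 2 higher. Of 13 genes of DNA damage and replication stress, 1 fell on anti-CD40L: Rpa1, of the complex that coats single-stranded DNA, which went from 168.45, 170.26 and 165.98 CPM to 129.95, 131.95 and 132.99 (log2 fold change -0.35, SE 0.09; edgeR, Benjamini-Hochberg adjusted p = 0.0214). That call was lost without any 1 of the isotype libraries or anti-CD40L replicate 1, and without anti-CD40L replicate 3, 2 genes of the list rose. The list's median log2 fold change was 0.23, with 7 genes at an unadjusted p under 0.05, beside -0.01 and 26.4% over all tested genes. DESeq2 called 2 higher and 1 lower, and limma-voom 1 lower. Of all tested genes 6.46% fell and 2.91% rose by edgeR, and DESeq2 and limma-voom called 14.4% and 9.29%.

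**Figure D5:**
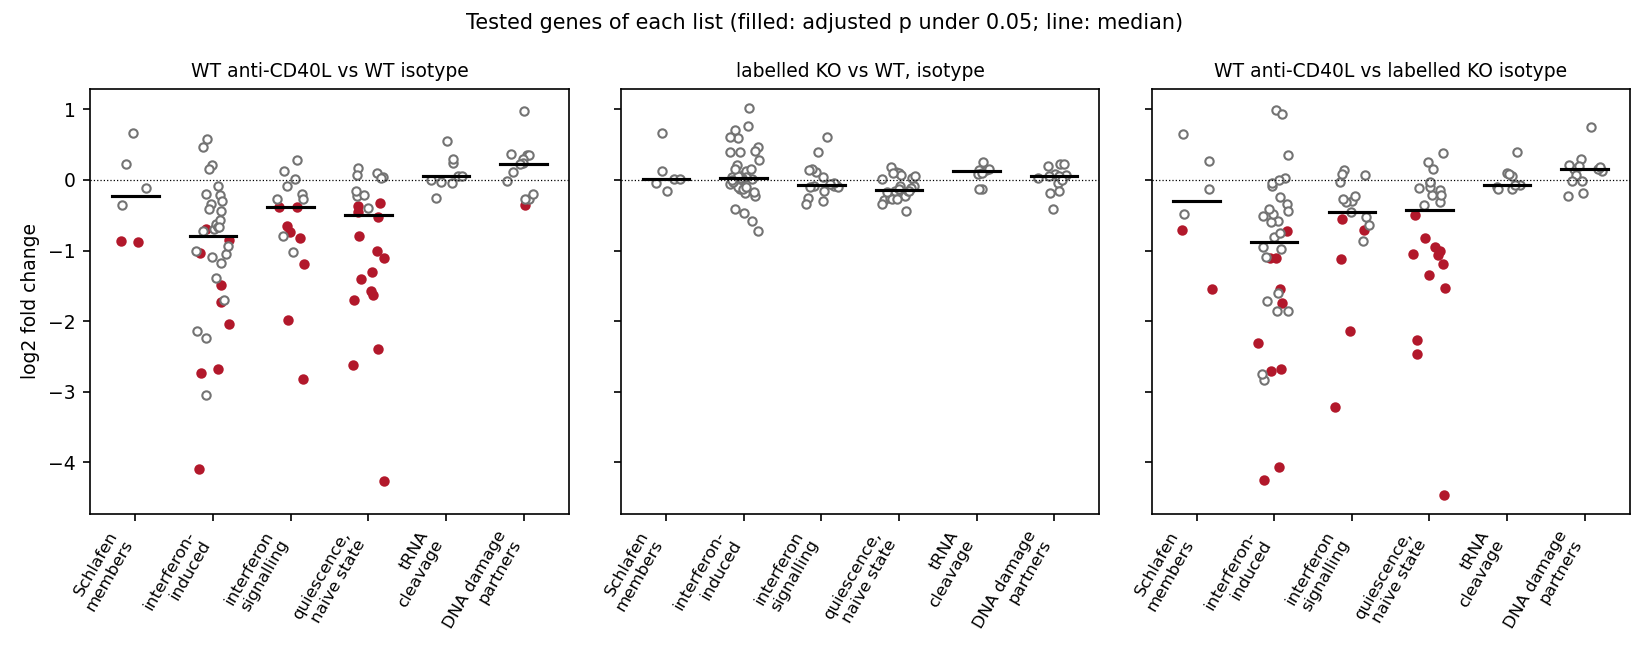
Log2 fold change of the tested genes of each list in the 3 comparisons (filled: Benjamini-Hochberg adjusted p under 0.05 by edgeR; line: median). Filled points of the interferon and quiescence lists all lie below 0 in both comparisons that involve anti-CD40L, and no list has a filled point where the libraries labelled KO are set against wild type.

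Genes whose level followed a member most closely were ranked by Pearson r of log2 CPM over the 9 libraries, among 8900 genes with a mean of at least 5 CPM. These are descriptions, since the points share libraries and groups. For Slfn1 they were Card6 (r = 0.987), Otulinl (0.987) and Sash3 (0.986), the last an adaptor of lymphocyte receptor signalling. For Slfn5 they were Syne2 (0.975), which links the nucleus to the cytoskeleton, Sap25 (0.968) and Carns1 (0.965). Without anti-CD40L replicate 3 these r values lay between 0.963 and 0.984. Syne2 still led for Slfn5, while for Slfn1 other genes led, Gm2a first (0.998), and Card6, Otulinl and Sash3 ranked at places 9, 11 and 6. For Slfn2 they were Mrpl45 (0.970), Elp3 (0.968) and Mrpl36 (0.967), of which Mrpl45 and Mrpl36 encode mitochondrial ribosomal proteins and Elp3 a transfer RNA modifying enzyme. Without that library their r was 0.911 to 0.921 and another gene, Nt5c2, led (0.956).

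For the members that were not called, the closest genes were Sec11c (0.911), Vopp1 (0.906) and Dnajc16 (0.898) for Slfn3, and Qsox2 (0.943), Ankfy1 (0.932) and Zmynd8 (0.910) for Slfn8. For Slfn9 they were Bloc1s4 (0.959), Ruvbl2 (0.957) and Htra2 (0.954). That order rested on anti-CD40L replicate 3: without it Top2a led (0.963), whose r with Slfn9 over all 9 libraries was -0.087.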

How the data were processed

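The values are expected counts for 42361 RefSeq transcripts, deposited by the authors without normalization and all multiples of 0.5. The submitters' processing notes name CASAVA 1.8.2, HISAT2 2.1.0 and mm10. The sources used here do not give the counting tool, the use of strand or the treatment of reads that align more than once. Symbols, coordinates and promoters came from RefSeq tables of GRCm38.p6, and coding lengths from the GENCODE annotation. For each gene the transcript of highest total was kept and rounded up to whole counts, since whole counts had been assumed. Groups were compared by quasi-likelihood in edgeR 4.0.16 (R 4.3.3, TMM scaling, filterByExpr by group, all 9 libraries, Benjamini-Hochberg over 11256 genes, threshold 0.05), tested on simulated data. Each SE was derived from that test, as the absolute log2 fold change divided by the square root of the F statistic. DESeq2 1.42.0, limma-voom (limma 3.58.1), other scaling, no filter, only the groups compared, a replicate block, every transcript, fractions rounded down and each library left out were alternatives. All 6 members were named whatever their result, with up to 3 called genes per direction and list by smallest p, and the 3 genes most like each member. Members and lists were chosen with earlier results of these data known. The list counts without single libraries were added after seeing the data. Genes beyond the other end of the cluster are not reported here.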

Additional observations from a re-analysis of the deposited data

How the results depend on the processing

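Of the member log2 fold changes under 17 alternatives, 291 kept their direction and side of the threshold, 3 passed it only under the alternative, 2 no longer passed it and 10 reversed. The comparison of the libraries labelled KO with wild type gave the reversals, all near 0: Slfn9 was -0.035 by limma-voom, and with single libraries left out Slfn3 ranged from -0.084 to 0.121, Slfn8 from -0.087 to 0.241 and Slfn9 from -0.127 to 0.192. For anti-CD40L against isotype, 1055 genes were called, 1698 with no filter, 1625 by DESeq2 and 486 to 1342 with single libraries left out, which left 1 to 2 members called. Between the libraries labelled KO and wild type, 0 genes were called, 102 with no filter (1 member), 39 by DESeq2, 3 with only the groups compared, 1 with every transcript as a feature, and 0 to 2 with single libraries left out. Between anti-CD40L and the libraries labelled KO, 769 were called, 1305 with no filter, 1219 by DESeq2, 481 with only the groups compared and 346 to 1022 with single libraries left out; DESeq2 and the fit with no filter each called 3 members. The cause was not tested. Deviations of same-numbered libraries from their group means had correlations from -0.126 to 0.171. Differently numbered libraries were not compared in this way, so these values cannot show whether the numbers pair samples. A replicate block gave 954, 0 and 664 genes called and the same 2, 0 and 2 members. With 3 libraries a group and 27.5 to 57 counts per library for Slfn9, small differences were not detectable at this depth.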
